A study of Mus musculus with 16 samples.

Results

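The cytosolic ribosomal protein genes are the genes for the protein part of the ribosomes that translate messenger RNAs in the cytoplasm. They were chosen by symbol: Rps or Rpl with a number and at most one of the letters a, l or x, the stalk proteins Rplp0 to Rplp2, and Rpsa, with pseudogenes and S6 kinase genes left out. The array carried named probes for 80 such genes, and 79 of them were measured among the 22835 features tested, 31 of the small subunit and 48 of the large. The rule used names and no measured value. Rpl3l, the paralog of Rpl3 known from striated muscle, was well above background on 1 of 16 arrays and was not tested. The other 79 are called the measured members here.

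The samples were donor T cells from female mice of C57BL/6 background studied for the ovarian form of graft-versus-host disease. In that disease T cells that come with an allogeneic haematopoietic stem cell graft attack organs of the recipient. After allogeneic transplantation, CD8+ cells were sorted from the ovary (4 arrays) and from the spleen (3 arrays), and after syngeneic transplantation CD8+ cells were sorted from the spleen (3 arrays). The CD4+ groups, with 2 arrays each, were cells sorted from the ovary and from the spleen after allogeneic transplantation and from the spleen after syngeneic transplantation. All groups share the strain background and sex, and the labels give no age, time after transplantation or donor strain. Small numbers of cells sorted in 2 rounds gave the RNA, which was amplified before labelling, per the labels. The labels do not say that replicates came from separate animals, so p-values measure the spread between these samples only. RNA was measured per population, so fewer cells of a type and less RNA per cell cannot be told apart.

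Each ribosome is built from ribosomal RNA and one copy of most ribosomal proteins, so the genes are transcribed at high and matched levels. Their messengers begin at or near a run of pyrimidines, the 5′ terminal oligopyrimidine (TOP) motif, through which the growth kinase mTORC1 and the RNA-binding protein Larp1 control their translation. T cells that leave the resting state enlarge and make many new ribosomes, while naive resting T cells are known for ribosomal protein messengers as a large share of their RNA. The members whose values carry the results below include Rps27 and its near-copy Rps27l. Their differences between the splenic CD8 groups had opposite signs, and that of Rps27l was not called. The start sites of these and a few other members show runs of pyrimidines near the annotated start. The windows run from 20 bases before to 10 bases after the annotated start of transcription, 5′ to 3′ on the gene's strand, from RefSeq on GRCm38.p6, and capitals mark the longest unbroken run of C and T in each.
Rps27: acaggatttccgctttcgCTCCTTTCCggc
Rps27l: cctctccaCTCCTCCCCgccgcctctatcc
Rpl39: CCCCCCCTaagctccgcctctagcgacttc
Rpl39l: cctagctcccaggCCTTTCCggatttccgg
Rpl31: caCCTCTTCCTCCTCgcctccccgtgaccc
Rps25: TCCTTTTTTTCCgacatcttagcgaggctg
Rpl35a: gaggggcggggcgtgcgTCCCacaaggccg
These windows lie at chr3:90213639-90213668 on the minus strand (Rps27), chr9:66946066-66946095 on the plus strand (Rps27l), chrX:37085213-37085242 on the minus strand (Rpl39) and chr16:10170208-10170237 on the plus strand (Rpl39l). Those of Rpl31, Rps25 and Rpl35a lie on plus strands at chr1:39367831-39367860, chr9:44407694-44407723 and chr16:33056433-33056462. Each spans the start of the gene's first exon, so its last 10 bases belong to the 5′ untranslated region. The capitals of Rps27l, Rpl39, Rpl39l, Rpl31 and Rps25 end before the start, so they lie outside the annotated messenger. The marked runs therefore do not measure the TOP motif.

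A run of at least 8 bases that are all C or T, read on the gene's strand, was sought anywhere in such a window. It was present in 41.4% of the 70 start sites listed for the members and in 12.6% of all 32851 listed start sites. Of the 79 measured members, 59 had a listed start site, and 28 of the 59 had such a run at 1 or more starts. Such a run can lie wholly before the start, so these are not counts of TOP motifs. Rpl31 had the longest run of the windows shown, 13 bases, and Rps25 had 12. Rps27 and its near-copy Rps27l both had 9, so the length of the run did not separate that pair. Rpl35a had a run of only 4 bases at its most upstream start and was among the genes with the largest falls described below.

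The 75th percentile of signal ranged from 67.6 to 450 units over the arrays, and 41.8% to 59.4% of spots were well above background. Arrays of 1 group correlated at Pearson r of 0.936 to 0.996 across features, which are not independent replicates. Of the 79 measured members, 77 were well above background on all 16 arrays. T-cell identity fitted the labels: all 9 pan-T genes were above background on every array, and the summed signal of Cd8a and Cd8b1 was 85.0 to 142 times the array's 75th percentile in CD8 arrays and 0.177 to 1.17 times in CD4 arrays. Signal of macrophage genes was also present, at 7.45 to 14.9 times the 75th percentile over the CD8 arrays and 24.7 to 127 times over the CD4 arrays. With 2 to 4 arrays in a group, the precision of each value is limited by that number.

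Levels are given as log2 of the processed signal minus the array's 75th percentile, and differences are fitted differences of those levels, so that a difference of 1 is 2-fold. The spread beside a fitted difference is its standard error. A gene was called when limma gave an adjusted p under 0.05 over all 22835 features, and "rose" and "fell" are used only of called genes. Counts for other settings or without an array are given without the share of all features, unless a share stands beside them. Such a count alone does not show an excess over background.

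The median over the members, after centring each gene on its mean, was lower in CD8 cells after allogeneic transplantation than in syngeneic splenic CD8 cells. It was -0.22, -0.21, 0.04 and -0.16 on the arrays of ovarian CD8 cells, and -0.49, -0.26 and 0.02 on those of allogeneic splenic CD8 cells, against 0.33, 0.37 and 0.60 on those of syngeneic splenic CD8 cells. The syngeneic CD8 arrays were the highest of all 16, and no array of the other CD8 groups reached them. In CD4 cells the median was -0.04 and -0.07 in the ovary and 0.08 and -0.02 in the allogeneic spleen, against -0.07 and 0.17 in the syngeneic spleen. The 2 syngeneic CD4 arrays spanned nearly the whole range of the other CD4 arrays.

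**Figure D1:**
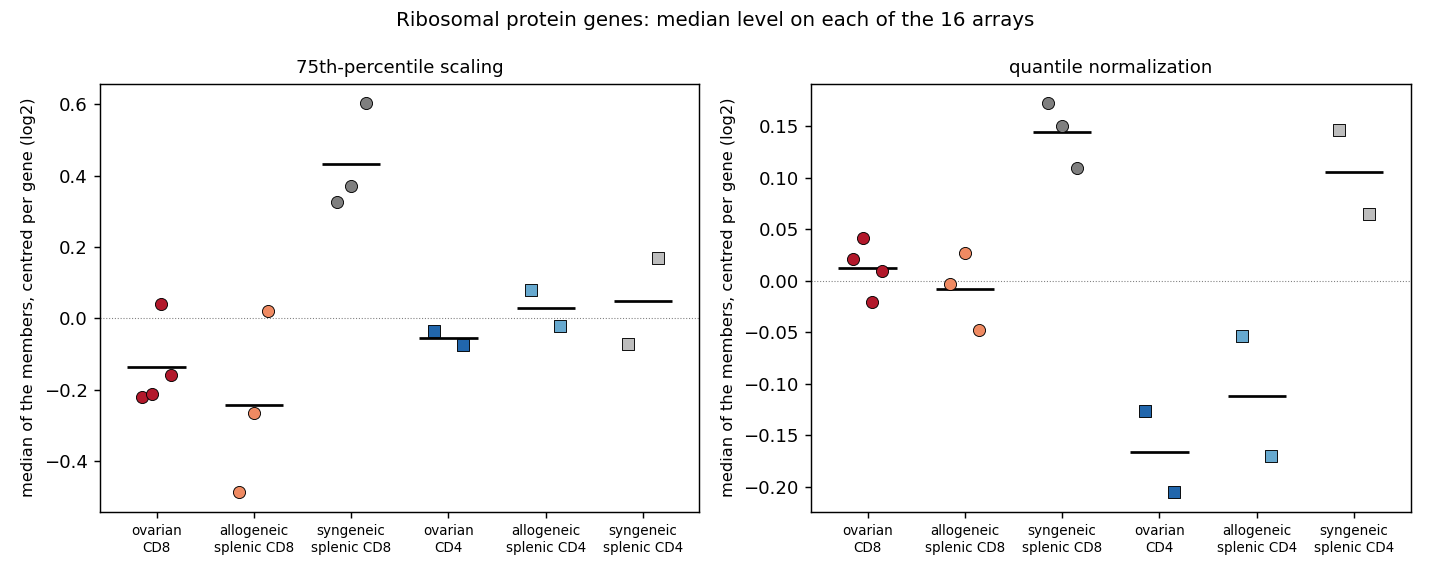
Median of the measured ribosomal protein genes on each array, each gene centred on its mean over 16 arrays (log2, y axis), by group (x axis), with 75th-percentile scaling on the left and quantile normalization on the right; points are arrays and bars are group means. The 3 syngeneic splenic CD8 arrays lie above every ovarian and allogeneic splenic CD8 array in both panels, and the size of the gap is smaller on the right, where the axis covers a narrower range.

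Allogeneic splenic CD8 cells were compared with syngeneic splenic CD8 cells to set the 2 kinds of transplant side by side in the same cell type and organ. Of 79 measured members, 58 fell, 0 rose and 21 were not called by limma, and at an unadjusted p under 0.05 there were 66 lower and 1 higher, against 48% of all features. The background in this comparison was high: 38.4% of all features were called, 19.6% lower and 18.8% higher. The members' median difference was -0.65, with a range of -1.22 to 1.09, against a median of -0.16 over all features. On single arrays, 60 members were lower and 2 higher with no overlap between the groups, against 29.3% and 24.2% of all features. Both subunits moved alike: the median was -0.65 for the 31 small-subunit members, of which 22 fell, and -0.66 for the 48 large-subunit members, of which 36 fell. Without replicate 3 of the syngeneic splenic CD8 cells 37 members were called, all lower. Without replicate 3 of the allogeneic splenic CD8 cells 65 were called. The shares of all features called without these arrays are not reported here.

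**Figure D2:**
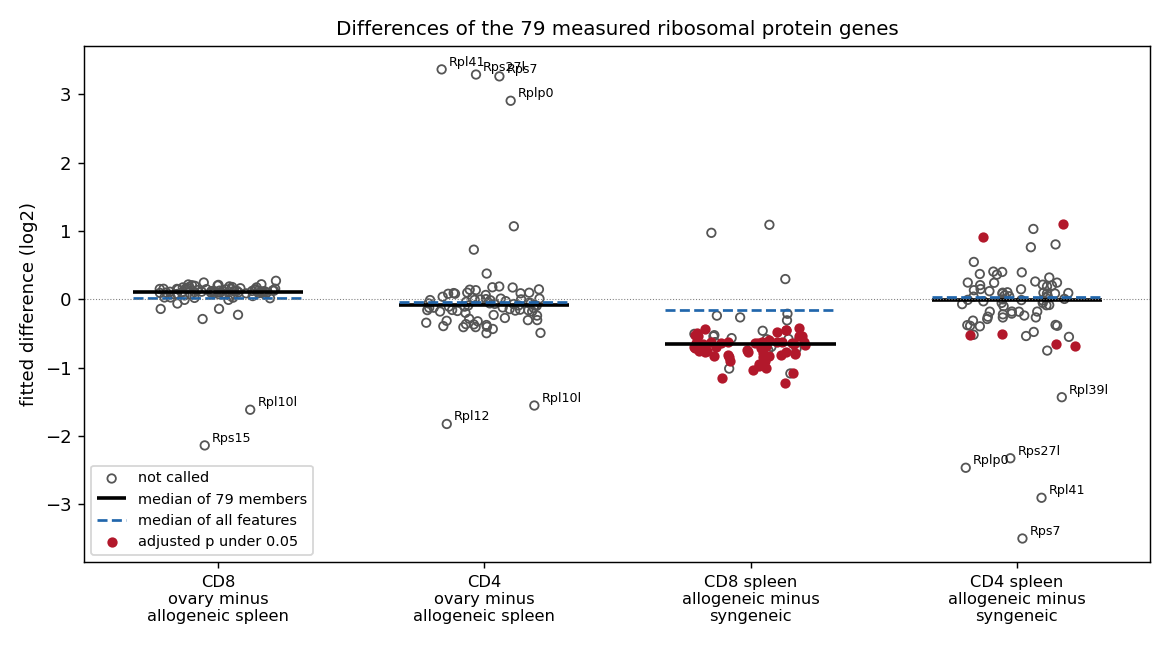
Fitted difference (log2, y axis) of each of the 79 measured members in 4 comparisons (x axis); filled points were called, open points were not, black bars are the members' medians and dashed blue bars the medians of all features. The members lie in a band around -0.65 in splenic CD8 cells and near 0 in the other comparisons, apart from the labelled genes, most of which rest on a single spot.

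Rps19, a small-subunit protein whose human gene is the most often mutated in Diamond-Blackfan anaemia, had the smallest adjusted p among the members. Its probe (A_55_P2098471) read 6.82, 6.998 and 6.92 in allogeneic splenic CD8 cells, against 8.05, 7.98 and 7.94 in syngeneic splenic CD8 cells. The lowest syngeneic array lay far above the highest allogeneic one, and Rps19 fell by 1.08 ± 0.12 (limma adjusted p = 1.89e-05). The ovarian CD8 arrays read 7.003, 7.08, 7.02 and 7.05, close to the allogeneic spleen. In CD4 cells Rps19 read 7.10 and 6.76 in the ovary and 6.96 and 6.90 in the allogeneic spleen, against 7.67 and 7.54 in the syngeneic spleen. It thus fell in allogeneic splenic CD4 cells too, by 0.68 ± 0.15 (limma adjusted p = 0.00865).

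Rps28, a short protein near the messenger's exit site, had a difference of -1.01 ± 0.22, Rps25, needed by some viral internal entry sites, -0.94 ± 0.18, and Rps4x, encoded on the X chromosome, -0.90 ± 0.13. Rps6, the substrate of S6 kinase, read 8.15, 8.21 and 8.46 in allogeneic splenic CD8 cells, against 8.83, 8.91 and 9.05 in syngeneic splenic CD8 cells. Its groups did not overlap, and it fell by 0.65 ± 0.13 (limma adjusted p = 0.00165). Rps18, at the head of the subunit, fell by 0.85 ± 0.21, Rps3, which lines the messenger's entry channel, by 0.44 ± 0.15, and Rps27a, made as a fusion with ubiquitin, by 0.65 ± 0.18. The difference of Rps3 was 0.0172 with quantile normalization, 0.0416 with normexp and quantile normalization and 0.319 with its second probe.

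Further called small-subunit genes had differences of -0.90 (Rps16), -0.85 (Rps27), -0.79 (Rps23), -0.77 (Rps10), -0.75 (Rps20), -0.71 (Rps9), -0.64 (Rps12) and -0.63 (Rps21). That of Rps13 was -0.54 and that of Rps15a was -0.44. Both were positive with quantile normalization, at 0.0136 for Rps13 and 0.101 for Rps15a, and Rps15a was called in 10 of 33 alternative settings. Of the 9 small-subunit genes not called, 7 had a lower mean in allogeneic cells. Rpsa, also known as a laminin receptor precursor, differed by -0.74 ± 0.30 (limma adjusted p = 0.0723), and Rps14, whose human gene is lost in the 5q- syndrome, by -0.57 ± 0.24 (limma adjusted p = 0.0821).

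In the large subunit, Rpl5 had the smallest adjusted p. Rpl5 binds the 5S ribosomal RNA together with Rpl11, and the free complex holds Mdm2, the inhibitor of p53. Its probe (A_55_P2024012) read 6.93, 6.86 and 6.83 in allogeneic splenic CD8 cells, against 7.72, 7.63 and 7.73 in syngeneic splenic CD8 cells. The groups were far apart relative to the spread within each, and Rpl5 fell by 0.82 ± 0.11 (limma adjusted p = 8.99e-05). Its partner Rpl11 read 9.004, 9.28 and 9.48 in allogeneic splenic CD8 cells, against 9.73, 9.76 and 9.87 in syngeneic splenic CD8 cells, and fell by 0.54 ± 0.14 (limma adjusted p = 0.00869). With quantile normalization the difference of Rpl11 was 0.0373, so its direction depends on the scaling.

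Rpl35a fell by 1.15 ± 0.21 and Rpl31, at the exit of the nascent chain's tunnel, by 1.04 ± 0.15. Rpl31 read 7.06, 7.18 and 7.36 in allogeneic splenic CD8 cells, against 8.28, 8.23 and 8.21 in syngeneic splenic CD8 cells, with no overlap. Rpl22 is a protein that mice need for the development of αβ T cells, and its levels were 8.38, 8.60 and 8.79 in allogeneic splenic CD8 cells, against 9.23, 9.23 and 9.37 in syngeneic splenic CD8 cells. It fell by 0.69 ± 0.14 (limma adjusted p = 0.00219), and its paralog Rpl22l1, which is not a member by name, fell by 0.50 ± 0.12 (limma adjusted p = 0.00536). Rpl10, one of the last proteins to join the subunit, had a difference of -0.70 ± 0.14, Rpl39, in the wall of the exit tunnel, -0.71 ± 0.19, Rpl38, known in mice for its part in translating Hox messengers, -0.64 ± 0.22, and Rpl3, close to the peptidyl transferase centre, -0.44 ± 0.11.

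Further large-subunit genes called had differences of -0.84 (Rpl8), -0.82 (Rpl26 and Rpl36a), -0.80 (Rpl30), -0.79 (Rpl9), -0.78 (Rpl13), -0.77 (Rpl14), -0.75 (Rpl23a) and -0.74 (Rpl19). Values between -0.70 and -0.62 were found for Rpl35, Rpl28, Rpl21, Rpl10a, Rpl7, Rpl36, Rpl37a, Rpl18 and Rpl15. Smaller falls, between -0.60 and -0.43, were those of Rpl17, Rpl6, Rpl34, Rpl32l, Rpl27a and Rpl29. With quantile normalization the differences of Rpl6, Rpl32l, Rpl27a, Rpl29 and Rpl3 were positive, up to 0.163 for Rpl29, which was called in 8 of 33 alternative settings. Rpl13a, known for silencing inflammatory messengers in myeloid cells, was not called, with a difference of -0.46 ± 0.22 (limma adjusted p = 0.113).

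The stalk proteins recruit elongation factors to the large subunit. Rplp1 read 8.49, 8.64 and 8.94 in allogeneic splenic CD8 cells, against 9.56, 9.64 and 9.78 in syngeneic splenic CD8 cells. The groups did not overlap, and Rplp1 fell by 0.97 ± 0.14 (limma adjusted p = 0.00018). Rplp2 fell by 0.70 ± 0.18 (limma adjusted p = 0.00927). Rplp0, their anchor, read 8.88, 9.20 and 9.51 in allogeneic splenic CD8 cells, against 9.56, 9.65 and 9.96 in syngeneic splenic CD8 cells, but its difference of -0.52 ± 0.89 was not called (limma adjusted p = 0.67).

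The error of Rplp0 moved with an array outside the comparison. All 6 groups share 1 estimate of spread, and on replicate 1 of the allogeneic splenic CD4 cells the Rplp0 probe read 4.22, against 9.51 on the other array of that group and 8.88 or more on every other array. The 2 further Rplp0 probes on that array lay within -0.10 to 0.31 of their own medians. The same array held single spots far below their probes' medians for Rps7 (1.26), Rpl41 (3.12) and Rps27l (-0.26), none of them with an outlier flag. Without that array the differences in CD8 cells had adjusted p-values of 0.0337 for Rplp0 (-0.52 ± 0.18) and 0.00034 for Rps7 (-0.72 ± 0.11) in limma. Rps15 had such a spot on replicate 1 of the ovarian CD8 cells (-1.68) and Rpl12 on replicate 1 of the ovarian CD4 cells (5.91). Without the array concerned, Rps15 differed by -1.01 ± 0.18 (limma adjusted p = 0.00137) and Rpl12 by -1.08 ± 0.20 (limma adjusted p = 0.00122) between allogeneic and syngeneic splenic CD8 cells. The text does not use fitted differences of these 6 genes where such a spot lies in a group compared, except where it says so.

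Not all members were lower. Rps27l, the paralog of Rps27 and a known target of p53, was higher: its single probe (A_51_P246903) read 6.00, 6.03 and 6.14 in allogeneic splenic CD8 cells, against 4.89, 5.23 and 4.79 in syngeneic splenic CD8 cells. The groups did not overlap, and the difference was 1.09 ± 0.92, not called with the shared spread (limma adjusted p = 0.366). Without replicate 1 of the allogeneic splenic CD4 cells, whose spot is named above, it was 1.09 ± 0.12 (limma adjusted p = 3.55e-05), and with only the compared groups in the fit it was 1.09 ± 0.16 (limma adjusted p = 0.00429). Rps27l was called in 6 of the 33 alternative settings tried, and positive in all 33, from 0.961 to 1.70. Its near-copy Rps27 read 8.87, 9.31 and 9.66 in allogeneic splenic CD8 cells, against 9.99, 10.002 and 10.38 in syngeneic splenic CD8 cells, and fell by 0.85 ± 0.22 (limma adjusted p = 0.0104).

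Rps27l was at 6.19, 6.15, 6.17 and 6.26 in ovarian CD8 cells, above every syngeneic splenic array. In CD4 cells it read 5.71 and 5.84 in the ovary and 5.23 on the usable allogeneic splenic array, against 4.85 and 4.78 in the syngeneic spleen, so the allogeneic splenic array lay between the other groups. Rpl39l, a paralog of Rpl39 best known from testis, read -1.28, -0.58 and 0.30 in allogeneic splenic CD8 cells, against -1.89, -1.72 and -0.86 in syngeneic splenic CD8 cells. Those groups overlapped and the difference of 0.97 ± 0.47 was not called (limma adjusted p = 0.119). Rps2, a small-subunit protein at the messenger's entry, read 7.78, 8.01 and 7.80 in allogeneic splenic CD8 cells, against 7.65, 7.43 and 7.63 in syngeneic splenic CD8 cells. The groups did not overlap, but the difference of 0.30 ± 0.11 was not called (limma adjusted p = 0.0552). With quantile normalization it was 0.722 ± 0.135 (limma adjusted p = 0.00127), and with the gene's second probe it was -0.105 ± 0.247, so the probes of Rps2 disagree.

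**Figure D3:**
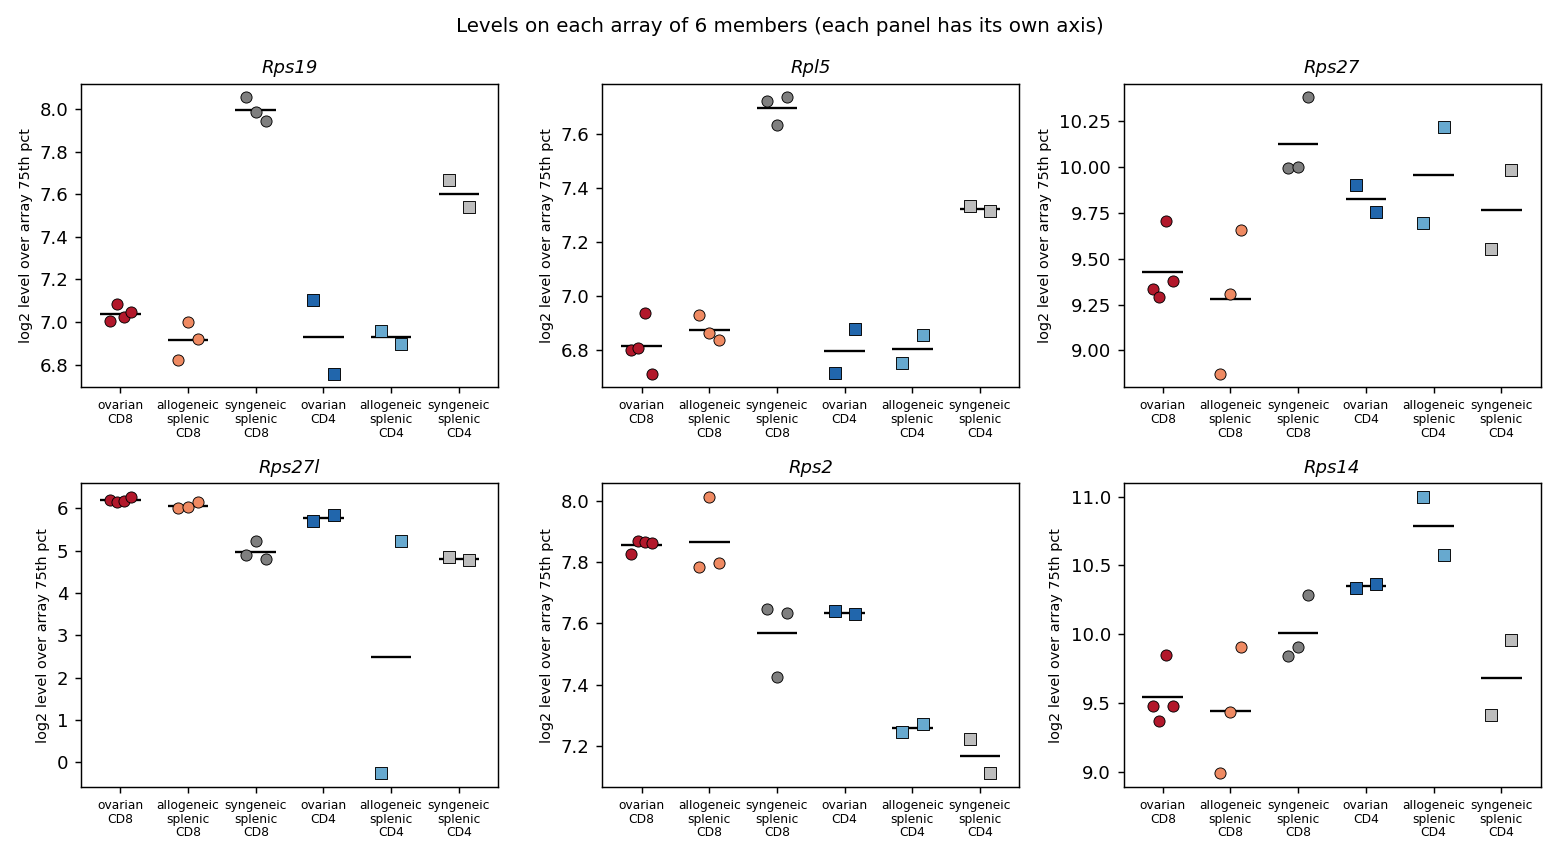
Level on each array (log2 over the array's 75th percentile, y axis, a scale of its own per panel) of Rps19, Rpl5, Rps27, Rps27l, Rps2 and Rps14 in the 6 groups (x axis); points are arrays and bars are group means. Rps19 and Rpl5 are low in every allogeneic group and high in both syngeneic groups, Rps27l is low in the syngeneic groups apart from a single allogeneic splenic CD4 spot at -0.26, and Rps14 is highest in allogeneic splenic CD4 cells.

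The shared fall, in its size and in the genes called, depended on how arrays were made comparable. With quantile normalization the members' median difference was -0.139, against -0.0842 for all features. Of 79 members, 15 were called, 13 lower and 2 higher. That share lay below the 35.6% of all features called, so no excess of called members remained with that scaling. With normexp background correction and quantile normalization the median was -0.131 and 18 were lower and 3 higher. With the array median as the scale the median was -0.404, against 0.0901 over all features, and 15 were called, all lower. The share of all features called is not reported here for normexp or for the array median. Their counts therefore cannot be set against background. The genes that fell with the 75th percentile and under both forms of quantile normalization, 11 in all, included Rpl26, Rpl28, Rpl31, Rpl35a, Rpl5, Rplp1, Rps16, Rps19, Rps28 and Rps4x. With quantile normalization the difference was -0.68 for Rpl35a and -0.31 for Rpl26, and that of Rps19 was -0.73 ± 0.13 (limma adjusted p = 0.000862). Of 33 settings, Rpl26, Rpl31, Rpl35a, Rpl5, Rplp1, Rps19, Rps28 and Rps4x were called in 32, the exception being slide 2 alone, with 1 allogeneic and 2 syngeneic arrays, on which no member was called.

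Array brightness moved with the members' median. Within allogeneic splenic CD8 cells the median was -0.49 at a 75th percentile of 450 units, -0.26 at 342 and 0.02 at 189, and within syngeneic splenic CD8 cells it was 0.33 at 245 units, 0.37 at 221 and 0.60 at 156. Over the 16 arrays with group means removed, the median and the log2 brightness had Pearson r = -0.70 with the 75th percentile and 0.91 with quantile normalization, a description over arrays that share their groups. The arrays closest in brightness were replicate 3 of the allogeneic cells, at 189 units and 0.02, and replicates 2 and 3 of the syngeneic cells, at 221 and 156 units and 0.37 and 0.60. With brightness as a covariate the median difference was -0.522 and 51 members were called, all lower, with the share of all features not reported here. On slide 1 alone, which holds a single syngeneic splenic CD8 array, the median was -0.655, and on slide 2 alone it was -0.465. The part of brightness in the fall was not otherwise tested.

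**Figure D4:**
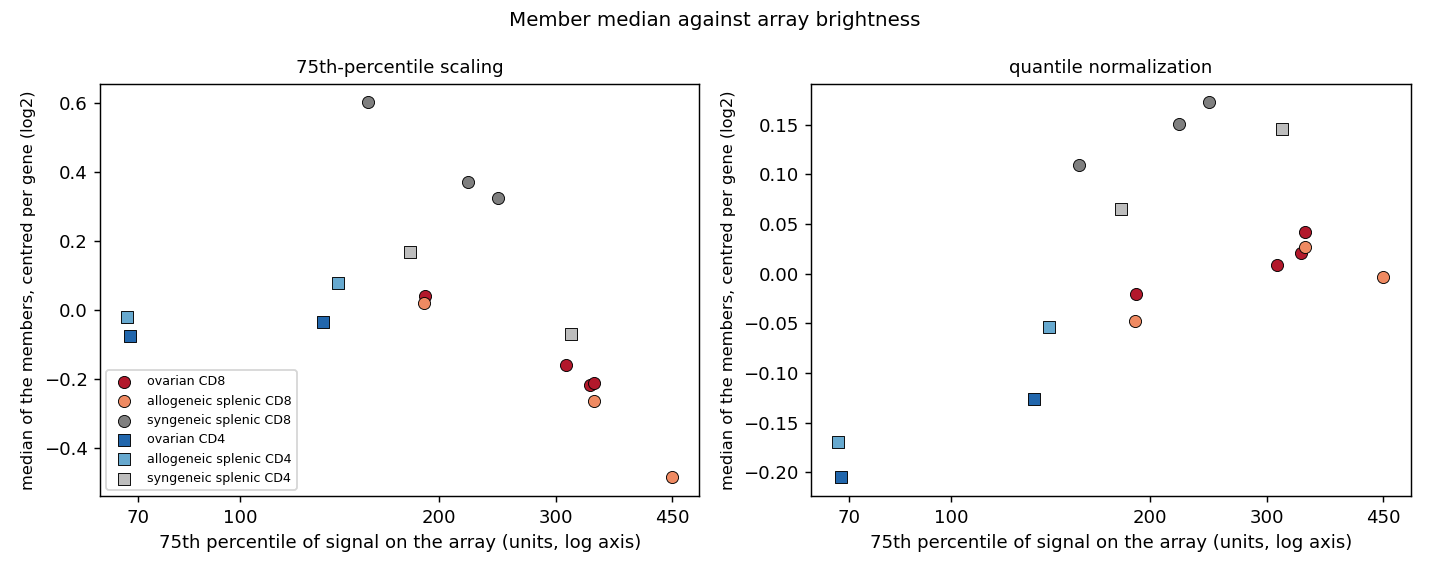
Members' median (log2, y axis) against the 75th percentile of signal of each array (units, log axis), with 75th-percentile scaling on the left and quantile normalization on the right; each point is an array, circles are CD8 and squares CD4. Within each CD8 group the dimmest array is the highest on the left and the lowest on the right, while the syngeneic splenic CD8 arrays lie above the allogeneic CD8 arrays in both panels.

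Genes of B cells moved in the same comparison. Of 7 B-cell markers, 6 fell in allogeneic splenic CD8 cells, by up to 2.63 (Fcmr), and their summed signal was 2.80 to 4.89 times the array's 75th percentile, against 14.9 to 24.0 times in syngeneic splenic CD8 cells. None of the 7 was below background on all arrays of either group. In splenic CD4 cells the summed B-cell signal was 8.97 to 9.53 times the 75th percentile after allogeneic transplantation, against 34.1 to 72.2 times after syngeneic, and the ribosomal members' median differed by -0.01 with the 75th percentile and by -0.275 with quantile normalization. The macrophage sum was 78.2 to 99.1 times the 75th percentile in splenic CD4 cells after allogeneic transplantation, against 24.7 to 42.3 times after syngeneic. In splenic CD8 cells it was 7.45 to 8.58 times, against 8.58 to 14.9 times. The part of B cells and macrophages in the members' differences, or in the interaction of transplant with subset, was not tested.

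Where genes had further probes, most went the same way in splenic CD8 cells. There 75 of 86 further probes of 51 genes had the sign of the brightest probe. The median was -0.65 for the brightest probes and -0.59 for the further ones. Of 65 further probes of called genes, 6 had the opposite sign. Rps3 is one such gene: its second probe differed by 0.319.

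In CD4 cells the common shift between transplants depended on the scaling. With the 75th percentile, of 79 members, 4 fell and 2 rose, against 16.1% of all features called, 5.7% lower and 10.4% higher. The median was -0.01, with 42 members negative and 37 positive. With quantile normalization it was -0.275, with 62 members negative, beside -0.139 in CD8 cells. The all-feature median of CD4 cells with that scaling is not given here, so shifts over background cannot be compared between the subsets. The members' median in CD4 cells was -0.182 with normexp and quantile normalization (17 called) and -0.295 with brightness as a covariate (11 called). The shares of all features called in these settings are not reported here. The count depended on single arrays: 0 members were called without replicate 1 of the syngeneic splenic CD4 cells, 10 without replicate 2 of the allogeneic splenic CD4 cells, and 3 without replicate 2 of either syngeneic splenic group or replicate 1, 2 or 4 of the ovarian CD8 cells. Besides Rps19, described above, Rpl5 read 6.75 and 6.85 in allogeneic splenic CD4 cells, against 7.33 and 7.31 in syngeneic splenic CD4 cells. It fell by 0.52 ± 0.13 (limma adjusted p = 0.0207). Rpl36a fell by 0.65 ± 0.20 (limma adjusted p = 0.0405) and Rpl21 by 0.50 ± 0.15 (limma adjusted p = 0.0453). The further probes of Rpl36a differed by -1.38 and 0.13, and those of Rpl21 by -1.25 and 0.08. Over the members, 44 of 86 further probes had the sign of the brightest probe in splenic CD4 cells. Of 6 further probes of called genes, 3 had the opposite sign. Rps3a1, a small-subunit gene outside the naming rule, fell by 0.82 ± 0.23 in CD4 cells (limma adjusted p = 0.0338) and by 0.90 ± 0.19 in CD8 cells (limma adjusted p = 0.00277).

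Rps14 and Rpl23 went the other way. Rps14 read 10.996 and 10.57 in allogeneic splenic CD4 cells, against 9.41 and 9.96 in syngeneic splenic CD4 cells, and rose by 1.1 ± 0.30 (limma adjusted p = 0.026). Rpl23 read 9.97 and 9.51 in allogeneic cells, against 8.56 and 9.11 in syngeneic cells, and rose by 0.90 ± 0.27 (limma adjusted p = 0.0419). Both groups of Rps14 and of Rpl23 stood apart, with the allogeneic arrays above. The further probes of Rpl23 differed by 0.33 and -1.03 in the same comparison, and the Rps14 difference was -0.114 with normexp and quantile normalization, so neither rise holds across probes and settings. The allogeneic splenic CD4 arrays were also dimmer than the syngeneic ones, with 75th percentiles of 141 and 67.6 units against 316 and 181.

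The transplant difference was tested against the subset by an interaction term. It was called for 9 members (11.4%), near the 11.9% of all features, of which 6.67% were in the negative direction. All 9 were more negative in CD8 cells: Rps14 (-1.67), Rps24 (-1.65), Rpl23 (-1.45), Rpl37a (-1.40), Rps16 (-1.10), Rps23 (-0.85), Rpl29 (-0.83), Rpl19 (-0.82) and Rplp1 (-0.79). The members' median interaction was -0.64 against -0.10 over all features. The signs of Rps14, Rpl37a, Rps16, Rpl29 and Rpl19 turned positive with normexp and quantile normalization, and that of Rpl29 also with quantile normalization alone. With quantile normalization 1 member was called, Rpl39l, which was higher and was picked out after its value was seen. Rps19 and Rpl5, which fell in both subsets, were not among the 9, which does not show that their falls were equal. This count too depended on single arrays, and the shares of all features called without them are not reported here. It was 36 without replicate 3 of the allogeneic splenic CD8 cells, 27 without replicate 2 of the allogeneic splenic CD4 cells, 1 without replicate 1 of the syngeneic splenic CD4 cells and 2 without replicate 2 of the syngeneic splenic CD8 cells. It was 4 or 5 without any 1 of replicates 1, 2 and 4 of the ovarian CD8 cells, replicates 1 and 2 of the allogeneic splenic CD8 cells, replicate 1 of the allogeneic splenic CD4 cells, replicates 1 and 3 of the syngeneic splenic CD8 cells and replicate 2 of the syngeneic splenic CD4 cells.

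Ovarian cells were compared with splenic cells of the same transplant and subset to ask what distinguishes T cells in the target organ. In CD8 cells limma called 0 of 79 members, against 0.53% of all features, and 0 had an unadjusted p under 0.05, against 8.31% of all features. With estimated array weights 2 were called. The members' median difference was 0.11, with 70 of 79 positive, and the all-feature median was 0.03. Arrays did not overlap for 6 members that were higher in the ovary and 1 that was lower, against 7.37% and 5.32% of all features. Rps19 read 7.003, 7.08, 7.02 and 7.05 in ovarian CD8 cells, against 6.82, 6.998 and 6.92 in allogeneic splenic CD8 cells, a difference of 0.13 ± 0.11. Rpl23a had the largest positive difference, 0.27 ± 0.13, followed by Rps18 at 0.25 ± 0.20. The largest negative ones were Rps15 at -2.14 ± 1.81, which rests on the spot described above, Rpl10l at -1.62 ± 0.89 and Rpl39l at -0.29 ± 0.44. Rpl10l, a testis paralog of Rpl10, was above background on 1 of 4 ovarian CD8 arrays and 2 of 3 allogeneic splenic CD8 arrays. On slide 2 alone the median was -0.0795.

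In CD4 cells limma called 0 members between ovary and spleen, against 0.907% of all features, and 6 had an unadjusted p under 0.05, 5 higher and 1 lower, against 15.7% of all features. The median was -0.09, with 54 members negative, and 7 members were higher and 24 lower without overlap, against 15.7% and 18% of all features. The largest positive differences, 3.36 for Rpl41, 3.29 for Rps27l and 3.26 for Rps7, rest on single spots of the allogeneic splenic CD4 replicate 1. The largest negative, Rpl12 at -1.82 ± 0.73, rests on a single ovarian spot. The next were those of Rpl10l, -1.55 ± 1.17, and Rps28, -0.50 ± 0.27. Rps2 read 7.64 and 7.63 in ovarian CD4 cells, against 7.25 and 7.27 in allogeneic splenic CD4 cells, and its difference of 0.38 ± 0.14 was not called (limma adjusted p = 0.219). The interaction of tissue and subset was called by limma for 0 of the 22835 features, and 3 members had an unadjusted p under 0.05, 1 higher and 2 lower, against 11.1% of all features. Without replicate 2 of the allogeneic splenic CD4 cells 8 members were called for the interaction and 8 between ovarian and splenic CD4 cells, and without replicate 2 of the ovarian CD4 cells 1 in each.

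The subsets were also set against each other in each source. In syngeneic spleen, 78 of 79 members were higher in CD8 than in CD4 cells, with a median of 0.38 against 0.10 over all features, and 59 did not overlap, against 21.8% of all features. With quantile normalization the median was 0.0411, against 0.0503 over all features, and the members' median overlapped between the groups, at 0.11 to 0.17 on the CD8 arrays and 0.07 to 0.15 on the CD4 arrays. Other cells' markers moved in the same comparison: the B-cell sum was 14.9 to 24.0 times the 75th percentile in syngeneic splenic CD8 cells, against 34.1 to 72.2 times in syngeneic splenic CD4 cells, and the macrophage sum was 8.58 to 14.9 times, against 24.7 to 42.3 times. Their part in the difference was not tested. Rpl15 was the 1 member called, against 4.14% of all features, or 1.27% for those higher in CD8 cells. It read 8.41, 8.42 and 8.39 in syngeneic splenic CD8 cells, against 8.02 and 7.89 in syngeneic splenic CD4 cells, and was higher by 0.45 ± 0.11 in CD8 cells (limma adjusted p = 0.0438). No member was called there when any 1 of 13 arrays was left out, the other 3 being replicate 3 of the allogeneic splenic CD8 cells and both replicates of the allogeneic splenic CD4 cells. In allogeneic spleen the median was -0.26, or 0.126 with quantile normalization, and 4 members were higher and 9 lower in CD8 cells, against 29.4% of all features called, 15.2% higher and 14.3% lower. The 4 were Rps27l (3.57, which was 0.828 without the array with the far spot), Rpl39l (2.55), Rps2 (0.61) and Rpl3 (0.36). The 9 included Rps14 (-1.34), Rps24 (-1.27), Rpsa (-1.14), Rpl23 (-1.11), Rpl37a (-1.07), Rps16 (-0.68), Rpl29 (-0.54) and Rpl19 (-0.46). The count was 6 without replicate 1 or 2 of the allogeneic splenic CD8 cells, 28 without their replicate 3 and 22 without replicate 2 of the allogeneic splenic CD4 cells. The macrophage sum was 7.45 to 8.58 times the 75th percentile in allogeneic splenic CD8 cells, against 78.2 to 99.1 times in allogeneic splenic CD4 cells. Ovarian CD8 cells had 9.34 to 10.5 times, against 55.5 to 127 times in ovarian CD4 cells. The part of macrophage genes in the subset differences of either source was not tested. In the ovary 2 members were called, both lower in CD8 cells, against 17.5% of all features, or 9.03% for those lower: Rpsa (-1.02 ± 0.32) and Rps14 (-0.81 ± 0.26). Neither was called without replicate 1, 2 or 4 of the ovarian CD8 cells, replicate 2 of the allogeneic splenic CD8 cells or replicate 1 or 2 of the syngeneic splenic CD8 cells, and 1 was without either ovarian CD4 array or replicate 3 of the syngeneic splenic CD8 cells.

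Rpsa and Rps2 show how the probes bear on these differences. The brightest Rpsa probe read 8.33, 8.76 and 9.36 in allogeneic splenic CD8 cells, against 9.80 and 10.12 in allogeneic splenic CD4 cells. The groups did not overlap, but the next-brightest probe of Rpsa differed by -0.15 between the same cells and by 0.01 in the ovary. Rps2 read 7.78, 8.01 and 7.80 in allogeneic splenic CD8 cells, against 7.25 and 7.27 in allogeneic splenic CD4 cells, and its call was made in 30 of 33 settings, all with the same sign. Rpl39l was above background on 3 of 3 allogeneic splenic CD8 arrays and 1 of 2 allogeneic splenic CD4 arrays.

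The members varied together. Over the 16 arrays 37 of 79 correlated with the members' mean profile at a Pearson r over 0.8, with a median of 0.79, and 3 had r below 0: Rps2 (-0.30), Rps27l (-0.08) and Rpl39l (-0.02). The mean profile contains each member, and the arrays share groups and brightness. Rpl13 followed it most closely (0.97), then Rpl9 (0.96) and Rps25 (0.96). Outside the members, Apol7c (0.93), Tmeff1 (0.92), Acsbg3 (0.92), Gm6607 (0.91) and Tifab (0.91) were the 5 named genes most like the profile. Of these only Gm6607 was above background on all 16 arrays, the others on 3 to 12.

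Genes of other ribosomal proteins or their paralogs, named outside the rule, mostly followed the members in splenic CD8 cells. Of 7 such genes measured, 5 fell, 71.4% against 19.6% of all features lower. Among them were Rps3a1, Rpl22l1, Fau (-0.64 ± 0.23), which encodes a ribosomal protein fused to a ubiquitin-like protein, and Rack1 (-0.64 ± 0.17), a scaffold on the small subunit. Rpl36al, at -0.28, was not called, and Rpl7l1, a paralog of Rpl7, rose by 0.81 ± 0.29 (limma adjusted p = 0.0454). The ribosomal proteins of mitochondria showed another pattern: 25 of 77 rose and 2 fell, 32.5% against 18.8% of all features higher and 2.6% against 19.6% lower. The median was -0.65 for the cytosolic members, against 0.33 for the mitochondrial ones. Both medians were taken with the percentile scaling. With quantile normalization the cytosolic median lay close to that of all features, as described above. Values of the mitochondrial list and of the lists below with other scalings are not given here. Whether the contrast between the lists holds with those scalings was not tested. Mrpl27 rose by 0.99 ± 0.14 and Mrpl13 by 0.90 ± 0.12.

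The list of translation factors and other genes with TOP messengers did not move as one. Of 23 measured, 4 fell and 2 rose in splenic CD8 cells, 26.1% against 38.4% of all features, with a median of -0.13, near that of all features. Eef1b2, a nucleotide exchange factor of elongation, fell by 0.82 ± 0.13, Eif4a2, an initiation helicase, by 0.90 ± 0.15, Eif4b, its cofactor, by 0.51 ± 0.13 and Eef1a1, the main elongation factor, by 0.50 ± 0.16. Nap1l1, a histone chaperone, rose by 0.82 ± 0.18 and Pabpc4, a poly(A)-binding protein, by 0.67 ± 0.25. In CD4 cells Eif4b fell by 0.57 ± 0.15 and no other was called.

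Of 43 ribosome biogenesis genes, 5 fell and 2 rose in splenic CD8 cells, with a median of -0.10. The share called was 16.3%, below the 38.4% of all features. Utp14a (-0.86), Mybbp1a (-0.58), Rrp9 (-0.57), Fbl (-0.42), the methyltransferase of ribosomal RNA, and Rrp15 (-0.40) fell, while Polr1b (0.54), a subunit of RNA polymerase I, and Ncl (0.53), nucleolin, rose. In splenic CD4 cells 8 fell and 1 rose, with a median of -0.31 against 0.04 over all features. The share called was 20.9% against 16.1% of all features, and the share lower was 18.6% against 5.7%. Gar1, of the pseudouridylation complex, fell by 1.07 ± 0.17 and its partner Dkc1 by 0.71 ± 0.17. Nob1 (-1.44), Wdr74 (-1.17), Polr1a (-0.84), Heatr1 (-0.76), Mybbp1a (-0.75) and Fbl (-0.63) also fell, and Ubtf, a polymerase I factor, rose by 0.55.

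Of 26 genes of mTORC1, S6 kinase and TOP messenger control, 6 fell and 4 rose in splenic CD8 cells. The share called, 38.5%, was that of all features (38.4%). Sesn1 fell by 2.36 ± 0.20 (limma adjusted p = 2.07e-06) and Sesn3 by 1.12 ± 0.19. Eef2k, the kinase that slows elongation, fell by 1.93 ± 0.51 and Tsc1 by 0.88 ± 0.18. Pdcd4, an inhibitor of Eif4a, fell by 0.86 ± 0.19, and Myc, a transcription factor of growth, by 0.63 ± 0.21. Castor1 (1.19), Rps6ka1 (0.88), Mxd4 (0.81) and Eif4e (0.60), the cap-binding protein, rose. In CD4 cells Sesn1 fell by 1.68 ± 0.24 and Myc by 1.03 ± 0.25. The p53 surveillance list has 11 genes, Rpl5, Rpl11 and Rps27l among them, and in splenic CD8 cells 4 fell and 2 rose, 54.5% against 38.4% of all features. Ccng1 (1.03) and Cdkn1a (1.85) rose, and Mdm4 (-0.83) and Bbc3 (-0.91) fell with Rpl5 and Rpl11. In CD4 cells Cdkn1a (3.44) and Bbc3 (1.20) rose and Rpl5 fell.

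**Figure D5:**
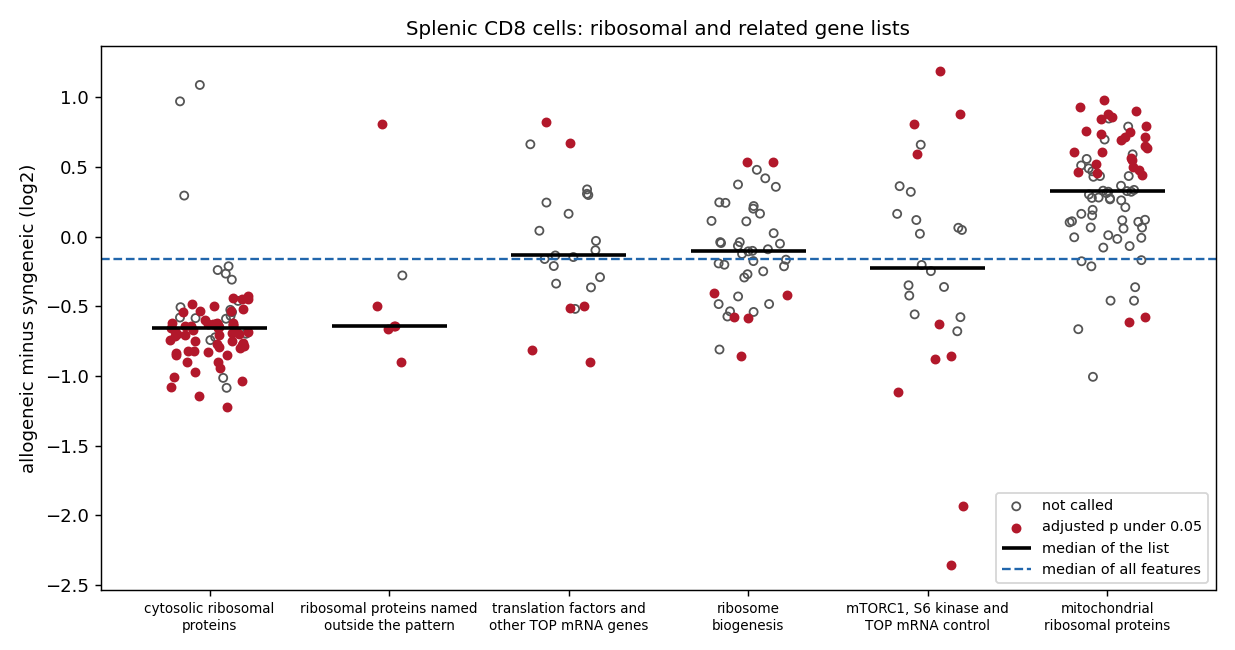
Fitted difference of allogeneic minus syngeneic splenic CD8 cells (log2, y axis) for the genes of 6 lists (x axis); filled points were called, open points were not, black bars are list medians and the dashed line is the median of all features. The cytosolic ribosomal proteins lie mostly between -1 and -0.4, the mitochondrial ones mostly above 0, and the lists of translation factors and biogenesis genes on both sides of the dashed line. Values are those of the percentile scaling, and other scalings are not shown.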

How the data were processed

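The deposited scanner tables hold each spot's intensity, which Agilent Feature Extraction 11.5.1.1 background-subtracted and detrended, per the file headers. The deposited series matrix holds log2 values, which matched each array's processed signal minus its 75th percentile and the probe's median. For the software behind that step, the sources used here name none.

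The log2 processed signal was shifted by each array's 75th percentile. Spots flagged as outliers were left out (244 features lacked a value), and 0 spots were saturated. Of 55681 probes, 27650 were named by matching accessions to RefSeq genes of GRCm38.p6, giving 20968 symbols. RefSeq lists 81 genes that meet the naming rule, and Rpl37 had no named probe. A probe was kept where some group had it well above background on each of its arrays (31120 probes). The probe with the highest mean stood for its gene (165 probes for the members, 52 genes with more than 1 probe before the filter). Brightness per array limits precision.

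All 16 arrays entered a single limma 3.58.1 fit (R 4.3.3), in which each group had its own mean and 10 residual degrees of freedom remained, with Benjamini-Hochberg adjustment over 22835 features in each of 9 comparisons. On simulated data for CD8 allogeneic against syngeneic spleen, 0% of 200 features changed by 0.5 log2 units, 26% of 200 changed by 1, and 76.5% of 200 changed by 2, were recovered among 22591. The simulation changed 200 features at a time, whereas 38.4% of all features were called in the real comparison. The adjustment is milder when more features change, so these shares do not describe the calls made there. The arrays lie on 2 slides that each hold every group, scanned on 1 day.

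Named genes are every member called in any comparison, the 3 largest differences of each sign in the 4 main comparisons, a list of 25 members and 6 non-members, the 5 genes most like the members' profile, and called genes of the related lists. Some genes that this rule names are not reported here. The members and lists were chosen with earlier results of these data known.

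Alternatives were quantile normalization, normexp with an offset of 50, the array median, the series matrix, other filters, the mean of a gene's probes, slide and replicate blocks, each slide alone, array weights, a trended robust variance, the compared groups alone and leaving out arrays. The brightness covariate, the second probe of a gene and leaving out arrays of groups not compared were added after the data had been seen.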

Additional observations from a re-analysis of the deposited data

Results flagged for a closer look

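In ovarian CD8 cells, the group with 4 arrays, 14 of 78 members had 1 array far from the other 3 by Dixon's ratio of gap to range (17.9%, against 13.5% of all features; chance flags about 1 in 20). For 13 of them the ratio is given here. Replicate 3, the dimmest of the 4, was the far array for 10 of the 13, with ratios of 0.994 for Rps25, 0.927 for Rpl19, 0.893 for Rps15a, 0.878 for Rpl37a, 0.85 for Rpl27, 0.839 for Rpl39l, 0.836 for Rpl9, 0.834 for Rpl14 and 0.832 for both Rpl13a and Rpl27a. Replicate 4 was the far array for Rpl7a (0.939) and Rps3 (0.909), and replicate 1 for Rps15 (0.984), whose spot lay at -1.68.

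The transplant difference was more negative in CD8 than in CD4 cells, by the interaction term, for 9 members. They were Rps14 (-1.67), Rps24 (-1.65), Rpl23 (-1.45), Rpl37a (-1.40), Rps16 (-1.10), Rps23 (-0.845), Rpl29 (-0.831), Rpl19 (-0.823) and Rplp1 (-0.79). That is 11.4% of the members, near the 11.9% of all features called in either direction. In the negative direction 6.67% of all features were called. The next-brightest probe of Rps24 gave -0.80 and that of Rpl23 gave -1.11, while the dimmest Rpl23 probe gave -0.02 and the second Rpl29 probe -0.30. With normexp and quantile normalization 5 of the 9 turned positive: Rpl19 (0.325), Rpl29 (0.319), Rpl37a (0.257), Rps14 (0.111) and Rps16 (0.0954).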

How the results depend on the processing

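The counts below are members called by limma out of 79, beside 0 for ovary against spleen in CD8 and in CD4 cells, 58 and 6 for allogeneic against syngeneic spleen in CD8 and in CD4 cells, 2, 13 and 1 for CD8 against CD4 cells of the ovary, the allogeneic and the syngeneic spleen, and 0 and 9 for the interactions of tissue and of transplant with subset. Counts within 1.5 times of these are not repeated, and the cause of a difference was not tested unless arrays or probes were left out. The share of all features called is not given per setting, so a count alone does not show an excess over background. The median difference of the members in splenic CD8 cells was negative in each of the 33 settings. The members Rpl10l and Rpl39l were not well above background on every array, which limits their values.

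With quantile normalization, 15 members and a median of -0.139 were found in splenic CD8 cells, a median of -0.275 in splenic CD4 cells, 0 members between the syngeneic subsets and 1 for the transplant interaction. The array median gave 15 and -0.404 in splenic CD8 cells, and 2, 0 and 1 for the same further comparisons. Normexp with quantile normalization gave 21 and -0.131 in splenic CD8 cells and 17 and -0.182 in splenic CD4 cells. It gave 6, 0 and 1 for the ovarian subsets, the syngeneic subsets and the transplant interaction. Without a filter on dim probes, 1 member was called in splenic CD4 cells, 0 and 0 between the ovarian and the syngeneic subsets and 1 for the transplant interaction, and 18 were called for that interaction with a filter on all 16 arrays. The series matrix gave 0 between the syngeneic subsets. The mean of a gene's probes gave a median of -0.186 in splenic CD4 cells, and 1 and 0 members between the ovarian and the syngeneic subsets. The second probe, chosen after the data had been seen, gave 11 and -0.194 in splenic CD4 cells and 0 between the syngeneic subsets.

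With slide as a block, 10 members were called in splenic CD4 cells, 6 between the ovarian subsets and 18 for the transplant interaction. Slide 1 alone gave 7 for ovarian CD4 cells against spleen, 12 with a median of 0.149 in splenic CD4 cells, 32 and 0 between the allogeneic and syngeneic subsets, and 5 and 19 for the tissue and transplant interactions. Slide 2 alone called 0 members in splenic CD8 cells (median -0.465), in splenic CD4 cells (median -0.179), between the ovarian, allogeneic and syngeneic subsets and for the transplant interaction. Its median for ovarian CD8 cells against spleen was -0.0795. With array weights the counts were 2 for ovarian CD8 cells against spleen, 0 in splenic CD4 cells, 6 and 3 between the allogeneic and syngeneic subsets and 3 for the transplant interaction. A trended robust variance gave 5 between the syngeneic subsets and 22 for the transplant interaction. With the compared groups alone, 0 were called in splenic CD4 cells, 6, 0 and 0 between the ovarian, allogeneic and syngeneic subsets, and 0 for the transplant interaction. Brightness as a covariate, added after the data had been seen, gave 11 and -0.295 in splenic CD4 cells, 1 and 5 between the ovarian and syngeneic subsets and 1 for the transplant interaction. Without the 2 dimmest arrays the counts were 7 for ovarian CD4 cells against spleen, 1, 21 and 3 between the ovarian, allogeneic and syngeneic subsets, and 6 and 25 for the tissue and transplant interactions.

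Leaving out 1 array at a time, the counts ran over 0 to 0 for ovarian CD8 cells against spleen (medians -0.00139 to 0.247), 0 to 8 for ovarian CD4 cells (-0.172 to -0.0297), 37 to 65 in splenic CD8 cells (-0.792 to -0.567) and 0 to 10 in splenic CD4 cells (-0.148 to 0.122). They ran over 0 to 3, 6 to 28 and 0 to 1 between the ovarian, allogeneic and syngeneic subsets, 0 to 8 for the tissue interaction and 1 to 36 for the transplant interaction.

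With the replicate number as a block, 64 members were called in splenic CD8 cells, 8, 32 and 0 between the ovarian, allogeneic and syngeneic subsets, and 24 for the transplant interaction. Deviations of same-numbered arrays correlated at r = 0.065, 0.164 and 0.322 for ovary and spleen in CD8 cells and 0.246, 0.05 and 0.334 for the splenic CD8 groups. In CD4 cells r was 0.234 for ovary and spleen and 0.201 for the splenic groups. With 2 arrays per CD4 group, replicates 1 and 2 give the same r by construction. Between the subsets r ran from -0.44 (ovary, replicate 2) to 0.454 (syngeneic spleen, replicate 1). Not every pair passed 0.1 and the labels do not say that a number marks a shared source, so the arrays share only a number.

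Single calls were recomputed 2738 times over 83 pairs of gene and comparison: 1987 kept direction and call, 713 lost the call and 38 turned in sign. For allogeneic against syngeneic splenic CD8 cells, quantile normalization gave 0.0373 for Rpl11, 0.0934 for Rpl27a, 0.163 for Rpl29, 0.048 for Rpl3, 0.0309 for Rpl32l, 0.035 for Rpl6, 0.0136 for Rps13, 0.101 for Rps15a and 0.0172 for Rps3. Normexp with quantile normalization gave 0.11 for Rpl11, 0.167 for Rpl29, 0.105 for Rpl3, 0.00856 for Rpl32l, 0.0215 for Rpl6, 0.0182 for Rps13, 0.139 for Rps15a and 0.0416 for Rps3. The second probe gave 0.319 for Rps3. Normexp with quantile normalization gave -0.114 for Rps14 in splenic CD4 cells and 0.115 between the ovarian subsets, where Rpsa was 0.012 with its second probe and 0.0593 with the brightness covariate. Between the allogeneic subsets normexp with quantile normalization gave 0.311 for Rpl19, 0.258 for Rpl29, 0.281 for Rpl37a, 0.152 for Rps14 and 0.195 for Rps16. The mean of probes gave 0.662 for Rps16 and 0.405 for Rpsa, and the second probe gave 2.88 for Rps16. For the transplant interaction normexp with quantile normalization gave 0.325 for Rpl19, 0.319 for Rpl29, 0.257 for Rpl37a, 0.111 for Rps14 and 0.0954 for Rps16. Quantile normalization gave 0.0418 for Rpl29, and Rps16 was 0.297 with the mean of probes and 2.58 with the second probe. The second Rps16 probe read 2.36 on replicate 1 of the allogeneic splenic CD4 cells, 1 of the far spots of that array, with 8.49 or more on every other array.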
